A study of Mus musculus with 9 samples.

Results

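Alkaline phosphatase staining is the classic sign of an undifferentiated mouse stem cell colony, and the genes described here are Alpl and Alppl2, which encode 2 of the enzymes that such a stain could detect. They were chosen by gene symbol, as every probe set annotated with 1 of these symbols alone, which gave 2 of 18194 genes and 3 of 45101 probe sets. The choice was made with earlier results of these arrays known, in which Alppl2 stood near the top of the comparison of the nitric oxide donor with no LIF. Its signals in that comparison therefore selected it, and they are given as a description with no test. Alpl was taken for its kinship and its role in the stain.

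The arrays measured D3-pOct4 cells, a mouse embryonic stem cell line, in 3 groups that all spent 7 days at low density in serum medium. In the LIF group the medium held 1000 U/ml of LIF, leukemia inhibitory factor, the cytokine that keeps these cells undifferentiated. The no LIF group received neither LIF nor donor, and the donor group received no LIF but 2 µM DETA/NO, a slow source of nitric oxide. Each group has 3 arrays, replicates 1, 2 and 3, from passages 31, 33 and 34 of 1 line. Whether each passage was grown as an independent culture is not stated in the labels, and the p-values below cover only the spread among the arrays, which may be technical.

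Alkaline phosphatases are enzymes on the outer face of the cell membrane, held there by a glycosylphosphatidylinositol (GPI) anchor, that remove phosphate from many small molecules. Alpl encodes the tissue-nonspecific enzyme, which is known for clearing pyrophosphate in mineralizing bone and for dephosphorylating the circulating form of vitamin B6, and which gives embryonic stem cells and primordial germ cells most of their stain. Alppl2 encodes the embryonic alkaline phosphatase, a relative of the placental and intestinal enzymes that is known from early embryos. A stain reads enzyme activity, while the arrays read transcripts only.

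Alpl lies on chromosome 4 and Alppl2 on chromosome 1, where Alpi, Akp3 and a family pseudogene are its neighbours. RefSeq lists 2 starts for Alpl and 1 for Alppl2 in its promoter table, and both member genes matched that table. A probe set for a gene cannot tell which start made the transcript it reads, so the 250 bases before each start are shown (RefSeq, GRCm38.p6, minus strand, 5′ to 3′). The distal Alpl start has chr4:137796385-137796634 before it, the proximal Alpl start chr4:137766476-137766725, and the Alppl2 start chr1:87089929-87090178. Capitals mark matches on either strand to a motif known from basal promoters, GGGCGG. They also mark a motif that was searched for after the sequences were seen, TATTTAA.
Alpl distal: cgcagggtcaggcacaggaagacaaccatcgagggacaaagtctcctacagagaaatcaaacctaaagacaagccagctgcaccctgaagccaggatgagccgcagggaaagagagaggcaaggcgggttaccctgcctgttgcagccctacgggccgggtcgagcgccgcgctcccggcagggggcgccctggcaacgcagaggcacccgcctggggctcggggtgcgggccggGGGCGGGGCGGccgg
Alpl proximal: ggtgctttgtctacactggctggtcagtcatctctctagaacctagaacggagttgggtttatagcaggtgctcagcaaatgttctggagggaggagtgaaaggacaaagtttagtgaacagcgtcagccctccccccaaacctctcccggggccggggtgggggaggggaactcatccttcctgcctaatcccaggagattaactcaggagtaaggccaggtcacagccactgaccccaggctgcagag
Alppl2: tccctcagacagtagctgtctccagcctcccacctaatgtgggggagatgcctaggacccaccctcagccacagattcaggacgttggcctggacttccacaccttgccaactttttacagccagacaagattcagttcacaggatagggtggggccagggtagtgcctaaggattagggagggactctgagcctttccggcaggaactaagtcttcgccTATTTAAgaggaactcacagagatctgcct

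The distal Alpl start is GC-rich, and the other 2 starts are not. Its 250 bases held 68.4% G and C and 20 CpG pairs, against 56% and 4 at the proximal Alpl start and 54% and 3 at Alppl2. Over all 32851 promoters of the table the medians were 52.4% and 6. GGGCGG occurred as 2 overlapping matches at the distal Alpl start, 15 and 10 bases before it, and in 32.7% of all promoters. TATTTAA occurred 30 bases before the Alppl2 start, 31 bases before the start of its neighbour Akp3, and in 4.18% of all promoters. The palindrome TTCNNNGAA, the core letters bound by STAT factors that LIF activates, was in 0 of these 3 windows and in 7.02% of all promoters.

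Signals are linear intensities scaled by the authors to the same trimmed mean of 100 on every array. Array medians ran from 13.9 to 23.3 and were above 20 on 3 arrays, LIF replicate 1 and donor replicates 1 and 2. These are called brighter below, and the others dimmer, by the median alone. Their 20th percentiles were also higher, at 4.187 to 4.685 against 2.37 to 3.246 on the others. Their 90th percentiles were not, at 328.6 to 336.7 against 334.2 to 342.6. All 10 markers of undifferentiated stem cells lay above the array median on all 9 arrays. So did 9 to 10 of 10 primitive and parietal endoderm markers on each array, 4 to 6 of 6 primed epiblast markers and 3 to 5 of 6 trophoblast markers. Lying above this low median therefore does not show that the cells were undifferentiated. Socs3, a feedback target of LIF, went against 2 labels, at only 282 on the library labelled LIF replicate 2 but 3054 on that labelled no LIF replicate 2. No LIF replicate 1 and donor replicate 3 were nearly the same over the brightest probe sets, with an SD of their log2 difference of 0.248, against 0.575 for the next closest of all pairs. Whether any labels were exchanged cannot be settled from the signals, and every group mean and passage difference takes the labels as given. These 2 arrays are called the alike pair, and the Alpl differences between groups are given with and without them.

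Alpl was strongly expressed in most cultures of every condition and low on the 2 arrays of the alike pair. In bulk RNA, fewer cells that express a gene and less of its RNA per cell cannot be told apart. Its only probe set read 695, 546 and 807 with LIF in replicates 1, 2 and 3. Without LIF it read 162, 599 and 944, and with the donor 1255, 750 and 135. The LIF arrays lay close together, and both other groups spanned them on either side, so all 3 groups overlapped. Both extremes of the series, 135 and 1255, came from the donor group.

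**Figure D1:**
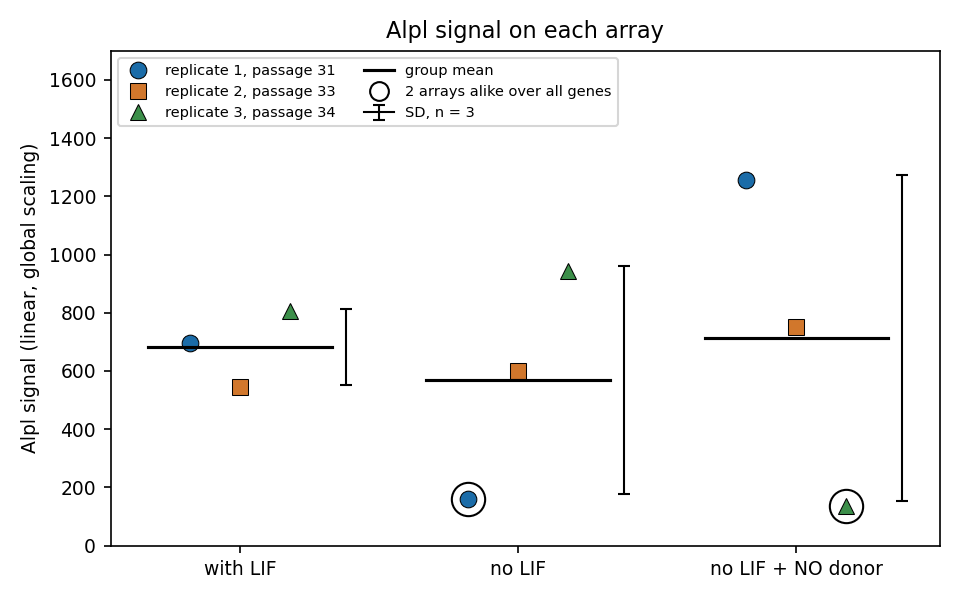
Alpl signal (vertical axis, linear scaled intensity) on each of the 9 arrays by group (horizontal axis), with the marker giving the replicate and passage, the horizontal line the group mean and the bar beside it the SD of 3 arrays. The ringed alike pair reads 162 and 135, and the other 7 arrays read 546 to 1255.

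Group means of Alpl were 682 ± 131 with LIF, 568 ± 392 without LIF and 713 ± 561 with the donor (SD, n = 3 each). Relative to the mean, the SD was 19.2% with LIF, 69% without and 78.6% with the donor. The order of the means, donor above LIF above no LIF, held no neighbours that differed beyond their spread. On the log2 scale, which gives the low donor array more weight, the donor mean lay under the LIF mean instead. Within its array Alpl stood between percentiles 93.5 and 97.9 of all probe sets on the 7 arrays outside the alike pair, and at percentiles 82.7 and 80.5 on no LIF replicate 1 and donor replicate 3.

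Without LIF, Alpl differed from the LIF group by -0.57 on the log2(signal + 3) scale (SE 0.8, 95% interval -2.35 to 1.2; limma adjusted p = 0.973). By passage the difference was -2.08, 0.13 and 0.23: 2 of 3 passages had the higher Alpl without LIF, although the mean was lower. Without the alike pair the direction turned, to 0.16 (SE 0.38; limma adjusted p = 1). Leaving out no LIF replicate 1 alone gave the same 0.16. Among the 29811 probe sets tested, limma called 0, which is 0%, so the call rate gives no scale for the gene; 459 had an unadjusted p under 0.05. The median of all tested probe sets in this comparison was -0.1 as scaled by the authors and 0.15 after median centring, where Alpl stood at -0.33.

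With the donor, Alpl differed from the LIF group by -0.42 (SE 0.8, 95% interval -2.19 to 1.36; limma adjusted p = 1). By passage the difference was 0.85, 0.46 and -2.55, and it turned to 0.52 without the alike pair (SE 0.38; limma adjusted p = 0.962) and also without donor replicate 3 alone. Limma called 0 of the 29811 probe sets (0%), and the unadjusted p was under 0.05 for 578. Array brightness moved with this comparison, since 2 of the 3 brighter arrays are from the donor group. With brightness as a block the difference was -0.9 (SE 0.71; limma adjusted p = 0.781), and within the 6 dimmer arrays, where donor replicate 3 is the only donor array, it was -2.27 (SE 0.93; limma adjusted p = 0.981). What part brightness has in the result was not tested.

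The donor against no LIF is the comparison that selected Alppl2, so Alpl is only described there. The log2 difference was 0.16 on average, and 2.93, 0.32 and -2.78 at passages 31, 33 and 34. The largest positive and the largest negative passage value each involve 1 array of the alike pair. Without both, the mean difference was 0.37, without no LIF replicate 1 alone -0.57, and without donor replicate 3 alone 1.1. Median centring gave -0.13, brightness as a block -0.8, and the 6 dimmer arrays, with 1 donor array, -1.72. The call rate over all probe sets was 0% here too, and the unadjusted p was under 0.05 for 1498.

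**Figure D2:**
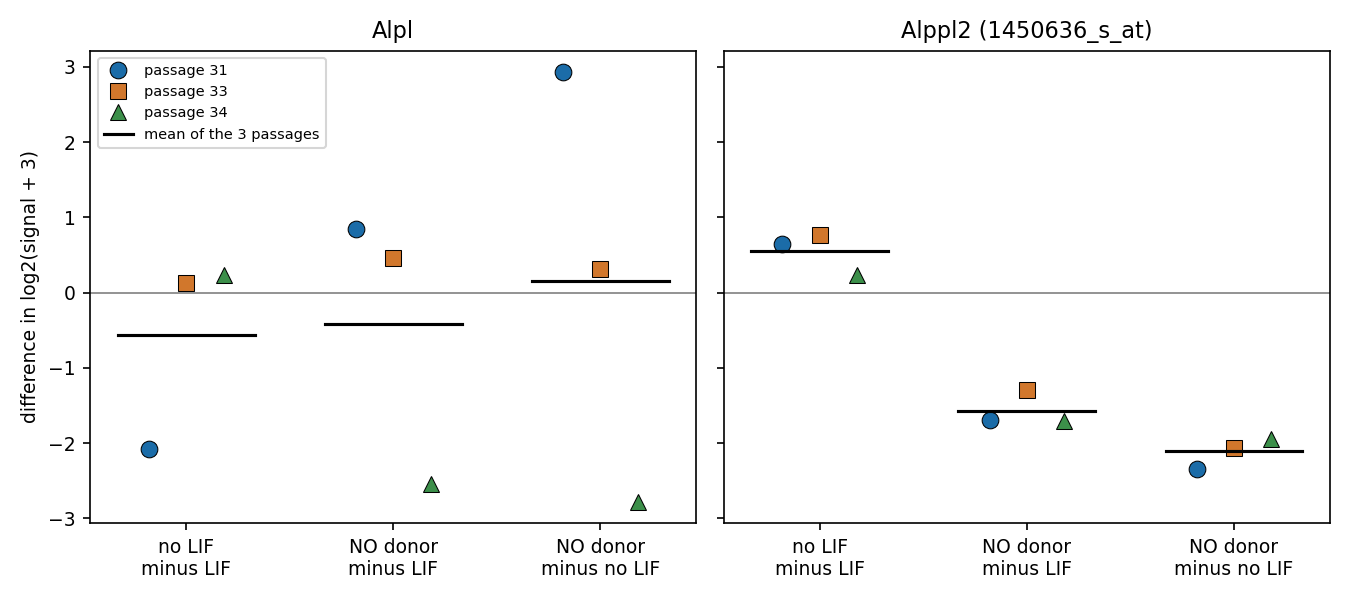
Differences in log2(signal + 3) (vertical axis) between groups, taken within each passage, for Alpl (left) and Alppl2 (right); points are passages and lines are the means of 3 passages. Alpl takes both signs in all 3 comparisons, and the brighter Alppl2 probe set, the one plotted, keeps 1 sign in each.

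The low Alpl of the alike pair stood beside the lowest signals of Esrrb and Klf4. Esrrb, a factor of the naive state, on its brightest probe set read 169 to 189 on the pair and 457 to 1366 on the other 7 arrays. Klf4, another such factor, read 197 to 233 against 625 to 2542. On these probe sets both genes, like Alpl, were lower on the pair than on any other array. The dimmest of 3 Esrrb probe sets differed, with 25.7 and 16.6 on the pair but 15.6 on no LIF replicate 3 and 17.4 on donor replicate 2. Pou5f1, a core pluripotency factor, was highest there, at 3044 to 3211 against 958 to 2562. Fgf5, a marker of the primed epiblast, was also highest there, at 521 to 567 against 0.576 to 82.6. Nanog and Zfp42 on the pair fell within the range of the other arrays. These sets of arrays were found in the data, so the contrast has no test, and of all tested probe sets 17.3% lay lower and 15.2% higher on both arrays of the pair than on the other 7.

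The marker lists of other cell types also set those 2 cultures apart in part. The summed signal of 6 primed epiblast markers was 6450 and 5660 on the pair and 558 to 4360 elsewhere. That of 10 primitive and parietal endoderm markers was 2480 and 2410 on the pair and 5040 to 16600 elsewhere. Trophoblast markers, summed over 6 genes, read 3770 and 4230 on the pair, within the 672 to 13400 of the other arrays. The keratins Krt8 and Krt18 weighed most in that sum, with highest signals of 6535 and 6570. Eomes reached 522, Cdx2 189 and Hand1 48.2, and Elf5 lay above the array median on 0 arrays. Osteoblasts are the cells best known for Alpl, and 4 of 8 osteoblast markers had a probe set annotated with their symbol alone. Runx2, Spp1, Bglap and Bglap2 had no such probe set and were not read, whether or not the array carries them. Of the 4 that were read, Ibsp, Dmp1 and Phex lay above the array median on 0 of 9 arrays. Sp7 did on 6, at signals of 15.1 to 31.1. The summed signal of the 4 was 24.5 to 41.2 over all arrays, at 35.9 and 30.2 on the pair. Fibroblast markers summed to 71.6 and 77.4 on the pair and 126 to 366 elsewhere, with Col3a1 and Postn above the median on 0 arrays and Pdgfrb and Thy1 on all 9. Pdgfrb and Thy1 had the highest signals of the list, at up to 235 and 94.5. Col1a1 and Col1a2 reached only 25.5 and 27.4 and lay above the median on 3 and 5 arrays. The part of primed, endoderm and fibroblast markers in the level of Alpl was not tested.

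Outside the alike pair no relation of Alpl with the stem cell factors passed a test. Because the pair forms a set of its own, correlations were taken over the other 7 arrays, for 7 genes. This choice was made after the data were seen, and it cut the log2 range of Alpl from 3.19 to 1.2. A relation carried by the pair, such as low Alpl beside low Esrrb and Klf4, could not show in this test. Pearson's r was -0.56 with Socs3 (Spearman's rho -0.39), -0.35 with Pou5f1 (-0.25), -0.33 with Zfp42 (-0.25), -0.24 with Klf4 (-0.29), -0.19 with Esrrb (-0.04), -0.06 with Nanog (-0.14) and 0.23 with Fgf5 (0.07). The exact permutation p was 0.2 for r with Socs3 and 0.453 to 0.892 for the others, with adjusted p from 0.794 to 0.892 for r and 0.963 for each rho. Without the 2 arrays farthest from the median of the other gene, r was -0.4 with Socs3 and changed sign for Pou5f1 (0.48), Nanog (0.15) and Esrrb (0.04). The 2 arrays that go against their labels for Socs3 had similar Alpl, at 546 for LIF replicate 2 and 599 for no LIF replicate 2. With the pair included, r of Alpl with Esrrb stood at percentile 90.1 of r with 8631 genes of mean signal 50 or more. Klf4 stood at percentile 87.5, Socs3 at 67.9, Zfp42 at 55.7, Nanog at 42.8, Fgf5 at 15.7 and Pou5f1 at 15.1. The r values over all 9 arrays have no test.

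The gene whose signals most resembled Alpl over the 9 arrays was Kcnk5, a background potassium channel, at r = 0.994 (rho = 0.983) among 8631 genes with a mean signal of at least 50. With LIF it read 288, 218 and 297. Without LIF it read 78.8, 274 and 418, and under the donor 516, 351 and 69.7. Its order of arrays nearly matched that of Alpl, including the low pair and the high donor replicate 1, and r was 0.957 over the 7 other arrays. Next came the lipid scramblase Ano6 and the glycosyltransferase B3gnt7, both at 0.983. The membrane peptidase Ermp1 followed at 0.981 and the surface proteoglycan Sdc4 at 0.977. Over the 7 other arrays these 4 had r of 0.859, 0.897, 0.878 and 0.765. The lowest r belonged to the mitochondrial ribosomal protein gene Mrpl43 (-0.984), the ubiquitin ligase gene Obi1 (-0.983) and the sialic acid synthesis gene Nanp (-0.98), at -0.922, -0.866 and -0.822 without the pair. High r is common for Alpl, whose 95th percentile of r over all these genes was 0.87, against 0.51 for Alppl2. All values share the same 9 arrays and their scaling.

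**Figure D3:**
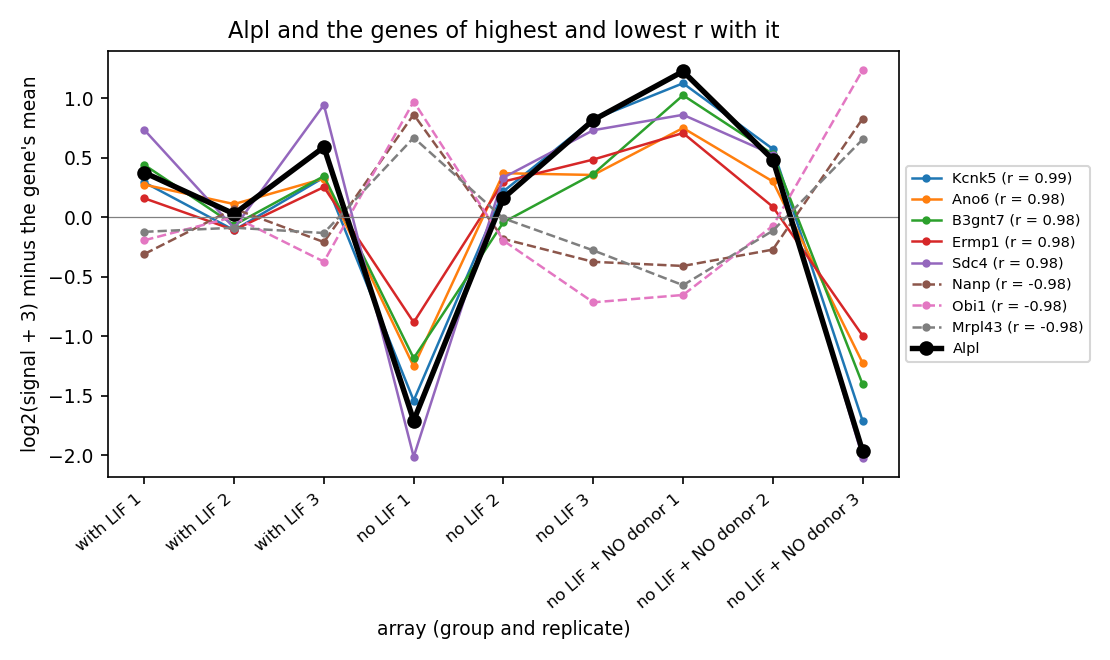
Signals of Alpl (thick black), its 5 most alike genes (solid) and its 3 least alike genes (dashed) as log2(signal + 3) minus each gene's own mean (vertical axis) on the 9 arrays (horizontal axis); lines join arrays only to guide the eye. The deviations of Alpl and the 5 genes are lowest on no LIF 1 and donor 3, where the 3 dashed genes are highest.

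Alppl2 was dim everywhere, and 1 of its 2 probe sets was near the bottom of every array. The brighter probe set, with the suffix _s_at, read 12.8, 8.4 and 10.8 in the LIF replicates 1, 2 and 3. It read 21.6, 16.3 and 13.2 in the replicates that lacked LIF, and 1.87, 1.65 and 1.21 in those given the donor. Every donor array was lower than every LIF array, and every LIF array was lower than every no LIF array. Group means were 10.6 ± 2.18, 17.1 ± 4.21 and 1.57 ± 0.336 (SD, n = 3). Even the highest group was near the array medians. The no LIF signals were between percentiles 47.1 and 57.1 of their arrays, the LIF signals between 37.1 and 40.8, and the donor signals between 11.5 and 12.7.

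The other probe set, with the suffix _at, read 1.02, 0.748 and 1.02 in the LIF replicates, 0.643, 0.481 and 0.62 in those lacking LIF, and 0.847, 0.884 and 0.464 in those given the donor. These signals were between percentiles 4.1 and 9.7 of their arrays. At such low signals no order of the groups is read from it. This probe set reached the 40th percentile of its array on 0 of 9 arrays and was not among those tested. The first reached it on 4 arrays, all 3 without LIF and LIF replicate 3, so it passed largely through the group where it was high. With Alpl, 2 of the 3 member probe sets passed. The suffix _s_at marks probes that match more than 1 transcript, and whether a related transcript adds to its signal was not tested.

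**Figure D4:**
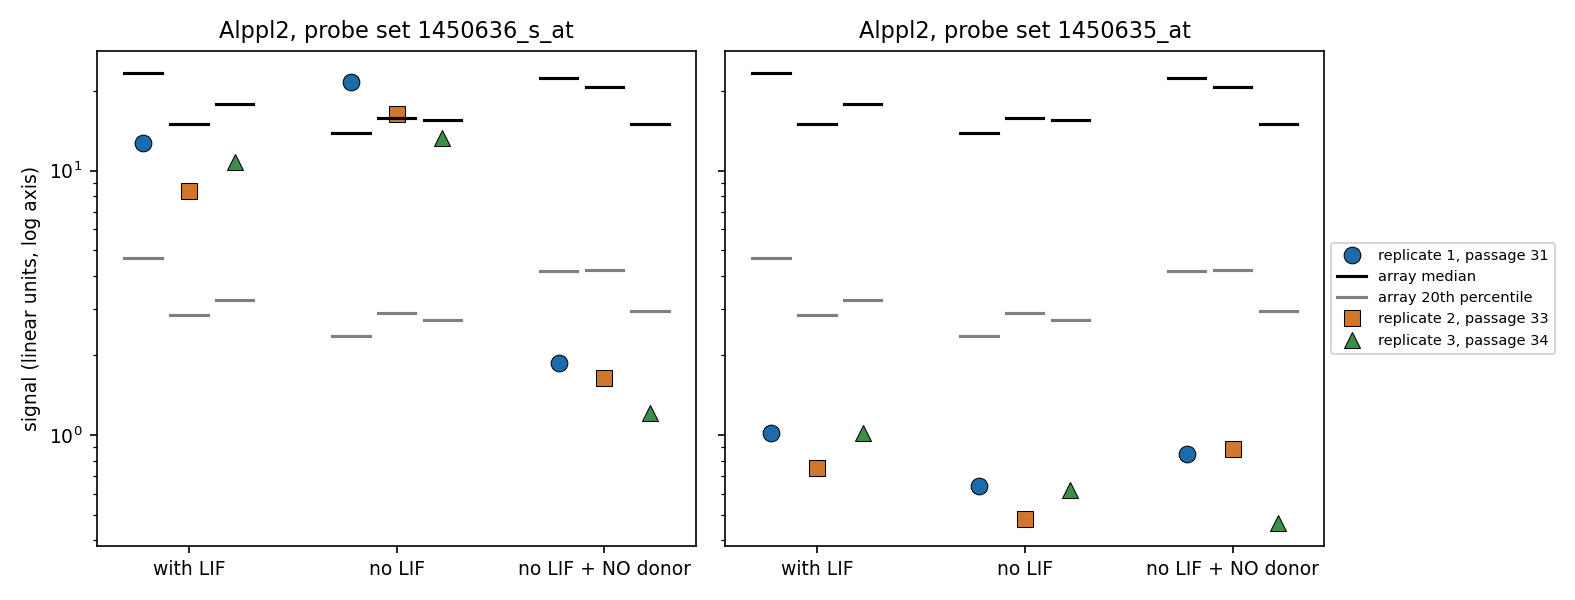
Signals of both Alppl2 probe sets (vertical axis, log scale) by group (horizontal axis), with the marker giving the replicate and passage, and short lines at the median (black) and the 20th percentile (grey) of the same array. The left probe set lies near the median without LIF and under the 20th percentile with the donor; the right one lies under the 20th percentile on all 9 arrays.

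On the log2 scale the brighter Alppl2 probe set differed by 0.55 between no LIF and LIF, at 0.64, 0.76 and 0.24 in passages 31, 33 and 34. Between donor and LIF the difference was -1.57, at -1.7, -1.29 and -1.71. Between donor and no LIF it was -2.11, at -2.34, -2.06 and -1.95, and the SE was 0.4 for all 3 differences. Each difference thus had 1 sign in 3 of 3 passages. Groups that do not overlap in these directions were found for 2.88% of tested probe sets for no LIF above LIF, 3.19% for donor below LIF and 2.52% for donor below no LIF. Since these signals selected the gene, nothing is read from that.

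The sizes depend on the pseudocount, as is usual for dim signals. With a pseudocount of 1 in place of 3, the donor differences were -2.17 from LIF and -2.79 from no LIF, and with 16 they were -0.6 and -0.9. Without the alike pair the 3 differences were 0.39, -1.51 and -1.9. Without both arrays that go against their labels for Socs3 they were 0.44, -1.69 and -2.13. With array brightness as a block they were 0.63, -1.65 and -2.28.

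The alike pair, nearly the same for most genes, parted on this probe set. Alppl2 read 21.6 on no LIF replicate 1 and 1.21 on donor replicate 3, a log2 difference of 2.55. Of 29811 tested probe sets, 6 differed at least as much between these 2 arrays, and of the 7521 with a mean signal of 5 to 20, 4 did. Both counts include the Alppl2 probe set itself. For Alpl the pair differed by 0.26, which 42.4% of tested probe sets reached. The Alppl2 difference is part of the comparison that selected the gene, so the difference and its rank are a description with no test.

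Alppl2 and Alpl took different courses over the arrays. Over the 9 arrays r between them was -0.04 (rho = -0.03), and over the 7 outside the pair it was -0.48. The genes most like Alppl2 were the translation factor Eif5a and the adiponectin receptor Adipor1, both at r = 0.849. They were followed by Prxl2c, a peroxiredoxin-like gene, at 0.842, the actin-binding profilin Pfn1 at 0.8 and the mitochondrial membrane protein Tspo at 0.784, among 8632 genes. Only genes with a mean signal of at least 50 were considered. Eif5a read 5478 to 6817 in the donor group and 6845 to 9097 on the remaining arrays. Ankrd26 (-0.854), the phosphatase Ptpn21 (-0.819) and the adaptor Crkl (-0.796) had the lowest r. With the pluripotency factor Pou5f1, r was 0.52 over 9 arrays and 0.93 over 7, and with Fgf5 it was -0.4 and -0.77. With Socs3 it was 0.44 and 0.7, with Nanog 0.49 and 0.65, and with Esrrb 0.22 and 0.58. With Klf4 it was 0.21 and 0.52, and with Zfp42 0.34 and 0.33. Leaving out the pair dropped donor replicate 3, where Pou5f1 read 3044 but Alppl2 had its lowest signal, 1.21. The donor arrays that stayed were the lowest of the 7 for both genes, so this r largely repeats the group contrast that selected Alppl2. As the gene was chosen with its values known, these r values have no test.

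The other alkaline phosphatase genes were dim as well. Alpi, an intestinal enzyme, read 22, 9.67 and 13.4 in the LIF replicates, 5.94, 16.5 and 1 in those lacking LIF, and 12.7, 5.41 and 7.55 in those given the donor. The groups overlapped, and the differences from LIF were -0.97 without LIF (SE 0.6; limma adjusted p = 0.973) and -0.63 with the donor (SE 0.6; limma adjusted p = 1). Akp3, the duodenal enzyme, read 0.405 to 8.1 over the 9 arrays and reached the 40th percentile on 0 of them. Of the 4 family genes, only Alpl lay above the array median on all 9 arrays.

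Of 28 listed genes that make and attach the GPI anchor, 27 had a probe set annotated with their symbol alone, and all 27 were tested. Without LIF 8 were higher and 19 lower than with LIF, with a median log2 difference of -0.41, against 57.3% lower and a median of -0.1 over all probe sets tested. That background holds every tested probe set, while the list holds the brightest of each gene. The background median was 0.15 after median centring, a setting not applied to the list. Limma called 0 in either direction. The mannosyltransferase Pigm had the largest difference, -0.94 (SE 0.4; limma adjusted p = 0.973), from a mean of 211 ± 70.3 with LIF to 105 ± 17.5 without (SD, n = 3). Its 1 other probe set took the same sign. Pign, an ethanolamine phosphate transferase, stood at -0.81, and its 3 other tested probe sets took that sign. The brightest members were Pigq, a subunit of the enzyme of the first step, at 0.17, and Pigx, the partner of Pigm, at -0.15. Of their other tested probe sets, 2 of 4 for Pigq and 0 of 1 for Pigx took that sign. Between donor and LIF 21 of 27 were lower, against 47.8% of all probe sets tested (median -0.24, all probe sets 0.02). Between donor and no LIF 16 of 27 were higher, near the 56% of all probe sets tested (median 0.18, all probe sets 0.08). Limma called 0 of the list in both.

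Genes around the enzyme's substrates, which handle phosphate, pyrophosphate and vitamin B6 phosphate, were tested for 8 of 11 listed. Limma called 0 in each comparison. Without LIF 6 were higher and 2 lower than with LIF, with a median of 0.16. Over all probe sets tested 42.7% were higher, with a median of -0.1 as scaled, the value to set beside the list. Median centring put that background at 0.15, but it was not applied to the list, which it would move by the same amount. The phosphate carrier Slc20a1 was the brightest, at 1550 ± 36.5 with LIF against 1510 ± 19.9 without (SD, n = 3), so that its log2 difference was -0.04. Ppa1, which splits pyrophosphate, stood at 0.54 (SE 0.41), and Ank, which exports it, at -0.56 (SE 0.38; limma adjusted p = 0.973 for both). Between donor and LIF 6 were higher (median 0.14), and between donor and no LIF 4 (median 0.03). Over all probe sets tested 52.2% (median 0.02) and 56% (median 0.08) were higher in these 2 comparisons.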

How the data were processed

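Probe set signals came from 9 Affymetrix whole-genome mouse arrays. Per the labels and the design text, the authors made these linear intensity values with GeneChip Operating System 1.4.0.036 and global scaling; the submitters' processing notes name MAS5. The deposited columns have a 2% trimmed mean of 100. Detection calls were not used here.

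Signals were turned to log2(signal + 3). The 64 control probe sets were left out, and tests were run on the 29811 probe sets that reached their array's 40th percentile on 3 or more arrays. R 4.3.3 with limma 3.58.1 gave 1 model for the 3 groups and 9 arrays (intensity trend, two-sided), with Benjamini-Hochberg adjustment over all tested probe sets and a threshold of 0.05; the fit was tested on simulated data. The brightest probe set stood for a gene. Correlations used exact permutation tests over 7 arrays, not the 9 first planned, since Alpl splits into separate sets of arrays. The number of arrays limits the precision.

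Names came from the platform annotation; 34754 of 34958 probe sets with 1 symbol matched RefSeq by Entrez identifier, the members included. The members and gene lists were chosen with earlier results of these data known. Named are all family and state genes, the 2 brightest and 2 most different genes of each list, and the 5 most and 3 least alike genes of each member. Protein sequences were not used here. Replicate numbers stand for passages in the labels; same-numbered arrays had correlations of deviations from group means between -0.597 and 0.65. Alternatives were the pseudocount, scaling, filter, trend, arrays in the fit, replicate block and each array left out; leaving out the alike pair or the arrays against their labels, and the brightness settings, were added after the data were seen.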

Additional observations from a re-analysis of the deposited data

How the results depend on the processing

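Limma called 0 probe sets in each of the 3 comparisons under each of 21 alternatives, with 255 to 2444, 258 to 1653 and 320 to 4290 at an unadjusted p under 0.05 for no LIF against LIF, donor against LIF and donor against no LIF. With the replicate block the count was 0 in all 3, and Alpl stood at -0.57 (SE 0.91) and -0.42 (SE 0.91) against LIF, so pairing by passage changed no call. Leaving out each array in turn moved Alpl without LIF to between -1.1 and 0.16 and with the donor against LIF to between -1.07 and 0.52, and with the donor against no LIF, where the reported difference was 0.16, to between -0.57 and 1.1. The sign turned to 0.16 without no LIF replicate 1 or the alike pair, and to 0.52 without donor replicate 3 or the alike pair. In both comparisons with LIF 19 of 21 alternatives kept the sign of Alpl, with limma adjusted p of 0.728 or more. Some of the 21 could not turn it. Changing the filter or variance trend, adding the replicate block, or leaving out arrays outside a comparison cannot change its mean difference. Those settings therefore say nothing on the sign. Alppl2 kept its signs under all 21, at 0.31 to 0.79, -2.17 to -0.6 and -2.79 to -0.9. The same settings could not move its differences, and its signals selected it, so nothing is read from that for Alppl2. Its second probe set failed the filter and gave no alternative, and Alpl has 1 probe set. The same probe sets were tested when arrays were left out, and a lone array was assumed to vary like the other groups. Correlations of Alpl with Nanog turned to 0.02 after quantile normalization. With deviations from group means they turned to 0.05 for Klf4, 0.13 for Pou5f1, 0.28 for Nanog, 0.02 for Esrrb and -0.22 for Fgf5, and without the 2 farthest arrays to 0.48 for Pou5f1, 0.15 for Nanog and 0.04 for Esrrb. With deviations from passage means they grew for most, to -0.75 for Socs3, -0.61 for Klf4, -0.58 for Pou5f1, -0.51 for Esrrb, -0.42 for Nanog and 0.66 for Fgf5, with -0.28 for Zfp42 (permutation test, adjusted p of 0.295 to 0.527). Without the pair some passages and groups keep only 2 arrays, whose deviations mirror each other. The permutation p is therefore not exact for deviations from passage or group means. No correlation passed in any setting, and all of these settings leave out the alike pair. Signals near the bottom of the arrays limit what can be said of Alppl2, Alpi and Akp3.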
